A study of Mus musculus with 4 samples.

Results

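The comparison described here is between untransduced mouse embryonic fibroblasts kept for 10 days at 5% O2 and the same kind of cells kept for 10 days at 21% O2, the oxygen level of room air. Mouse embryonic fibroblasts are connective tissue cells grown out of whole embryos, and such cultures can carry cells of other types along with them. Each condition was measured once, on a one-colour (Cy3) Agilent array of total RNA. The members are the genes with a probe well above background on both arrays, 15197 of the 27591 gene names on the array, with 22890 of its 41174 probes. The series also holds 2 arrays of embryonic fibroblasts that had received 4 genes by transduction (Oct3/4, Sox2, Klf4, c-Myc) and were kept at 21% or 5% O2 for 72 hours (day 4). They are called four-factor cells here and share no array with the untransduced comparison. The labels give no mouse strain, embryo stage, passage or number of embryos. With 1 array per condition no difference has a replicate check, and none was tested.

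Cells sense oxygen through prolyl hydroxylases that mark the hypoxia-inducible factors (HIF) for destruction while oxygen is plentiful. When oxygen falls, HIF accumulates and switches on genes for glucose uptake, glycolysis, lactate export and the hydroxylases themselves. Fibroblasts on stiff plastic also tend towards a contractile, myofibroblast-like state, driven by serum response factor (SRF) with its cofactors and by YAP and TAZ acting through TEAD factors. The same cells secrete matrix, chemokines and complement proteins.

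Both untransduced arrays lay on 1 slide, so this oxygen comparison was made within a slide. On the arrays at 21% and 5% O2, 57.1% and 58.3% of probes were well above background, the 75th percentile of signal was 810 and 871 intensity units, and no spot was saturated. Replicate spots of a probe had a standard deviation of 0.042 and 0.041 log2 units, which describes spots and says nothing of the spread between cultures. Each level below is the log2 signal less that of the array's 75th percentile, so a level of 0 is the 75th percentile itself, and a difference (5% minus 21% O2) of 1 is 2-fold. All 30 genes of a fibroblast list were measured on both arrays. A list of 16 cell cycle genes was lower at 5% O2 in every member, by a median of -0.34, without any past 2-fold.

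Most genes differed little. Of the 15197 genes, 87.3% lay within 1.5-fold, and the median difference was -0.04. At 5% O2, 389 genes were at least 2-fold higher, a background of 2.56% of the genes, and 262 were at least 2-fold lower, a background of 1.72%. With the arrays scaled on spike-in controls in place of the 75th percentile, the split was 318 higher and 323 lower. By a lower bound, a further 149 genes were 2-fold higher and 147 were 2-fold lower, because only 1 of the arrays measured them. The share of genes past 2-fold was larger for genes of low signal. With genes split by level into 4 groups of equal size, it was 5.55% higher and 3.66% lower in the dimmest group, and 0.68% higher and 0.79% lower in the brightest. For comparison, 1.25% of the 17928 genes measured in four-factor cells were past 2-fold upward and 1.08% downward.

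**Figure D1:**
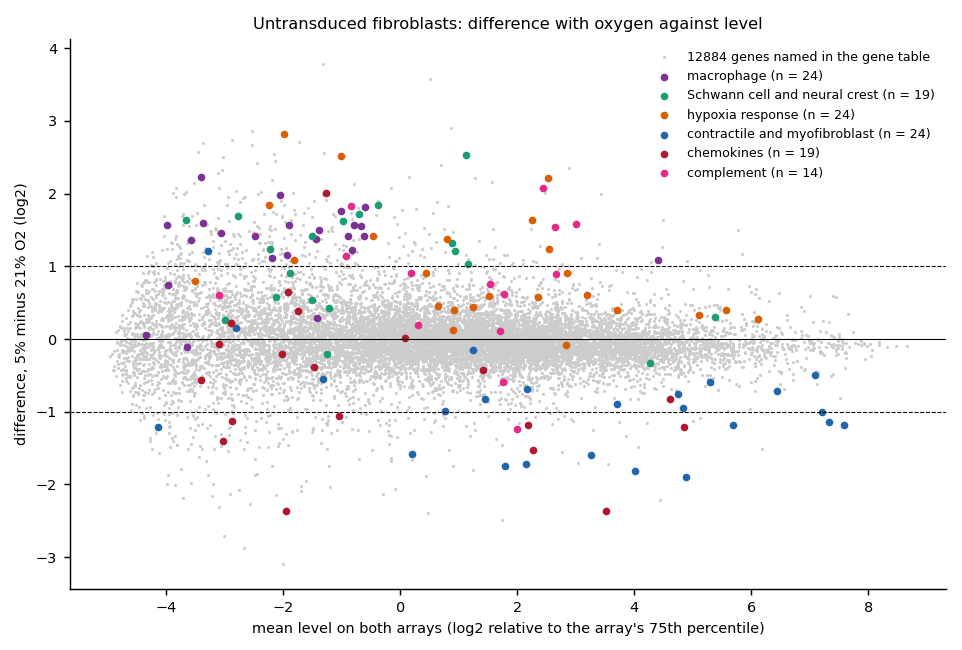
Difference between 5% and 21% O2 (log2) against the mean level of both arrays (log2 relative to the 75th percentile), for the 12884 genes that the gene table names (grey) and for members of 6 gene lists (coloured). Dashed lines mark 2-fold: 20 of the 24 macrophage members lie above the upper line, at mostly low levels, and 22 of the 24 contractile members lie below 0, at mostly high levels.

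The genes furthest higher at 5% O2 included products of macrophages, glia and fibroblasts. F13a1, the A chain of coagulation factor XIII and a product of tissue macrophages and megakaryocytes, had a level of -3.21 at 21% O2 and 0.57 at 5% O2, a 13.7-fold difference. The probe covers 36874811 to 36874870 of chromosome 13 (build mm8, which all probe positions use). In four-factor cells it went the other way, by -1.01. Ptgds, a prostaglandin D synthase of the meninges and of glia, went from -1.29 to 2.29, a difference of 3.58 (chromosome 2, 25289331 to 25289862). Gpr17, a receptor best known in oligodendrocyte precursors, went from -0.58 to 2.33, and Vtn, the adhesive plasma protein vitronectin, from -3.96 to -1.10. Tnxb, the matrix protein tenascin-X, was higher by 2.55, as was Myoc, the secreted protein myocilin. Gbp8, an interferon-induced GTPase, was higher by 2.70, Chrdl1, a BMP antagonist, by 2.36, Entpd2, a nucleotide-degrading enzyme of glia and fibroblasts, by 2.40, Lbp, the lipopolysaccharide-binding protein, by 2.23, and Cygb, the fibroblast globin cytoglobin, by 2.21. Lrrc23, Zfp114, Wdr86, Ighm, Abca8a, Sprr2g, Ttc41 and Plxnb3 were the others outside the lists below, between 2.19 (Plxnb3) and 2.74 (Lrrc23). By a lower bound, Cldn11, a tight junction protein of myelin, was higher by at least 3.58 on the log2 scale and Arg1, the enzyme arginase 1, was 6.32-fold higher or more. For Sun5 and Olfr502, known from sperm and from olfactory neurons, the bounds were 6.30-fold and 5.90-fold higher.

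The genes furthest lower at 5% O2 were led by an enzyme of inflammation. Ptgs2, the inducible cyclooxygenase, had a level of -0.46 at 21% O2 and -3.54 at 5% O2, 8.50-fold lower (chromosome 1, 151869504 to 151869563), and a second probe of the gene had the same direction. Alkal1, a ligand of the receptor ALK, was lower by -2.88, Crct1 by -2.71, and Cck, the peptide cholecystokinin, by -2.27. Msx2, a homeobox factor downstream of BMP signals, and Dusp4, a phosphatase induced by MAP kinase signalling, both had a difference of -2.13. Myom1 and Tnnt2, a myomesin and a troponin of striated muscle, were lower by -2.09 and -2.07. The remaining ones outside the lists were Prr32, Amdhd1, Rnf128, C2cd4a, Inpp4a, Tcra, Rassf6, Lrrc4c and Ifi27l2b, between -2.19 (Prr32) and -1.95 (Ifi27l2b). By a lower bound, Slc26a8 was lower by 8.17-fold or more and Lce1i by 8.08-fold or more. Omg, a myelin glycoprotein, was at least 6.52-fold lower, and Lrrc7, Kcnj9 and Olfr690 at least 6.32-fold, 5.61-fold and 5.46-fold lower.

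Genes were then read by programme, in 31 lists of 736 symbols, of which 539 were measured on both arrays. Another 47 were measured on 1 array (33 at 5% O2 and 14 at 21% O2), 135 were not well above background on either (called dim below), 7 had another probe than the chosen one above background, and 8 found no match. The lists held 81 of the 389 genes higher by 2-fold and 51 of the 262 lower.

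**Figure D2:**
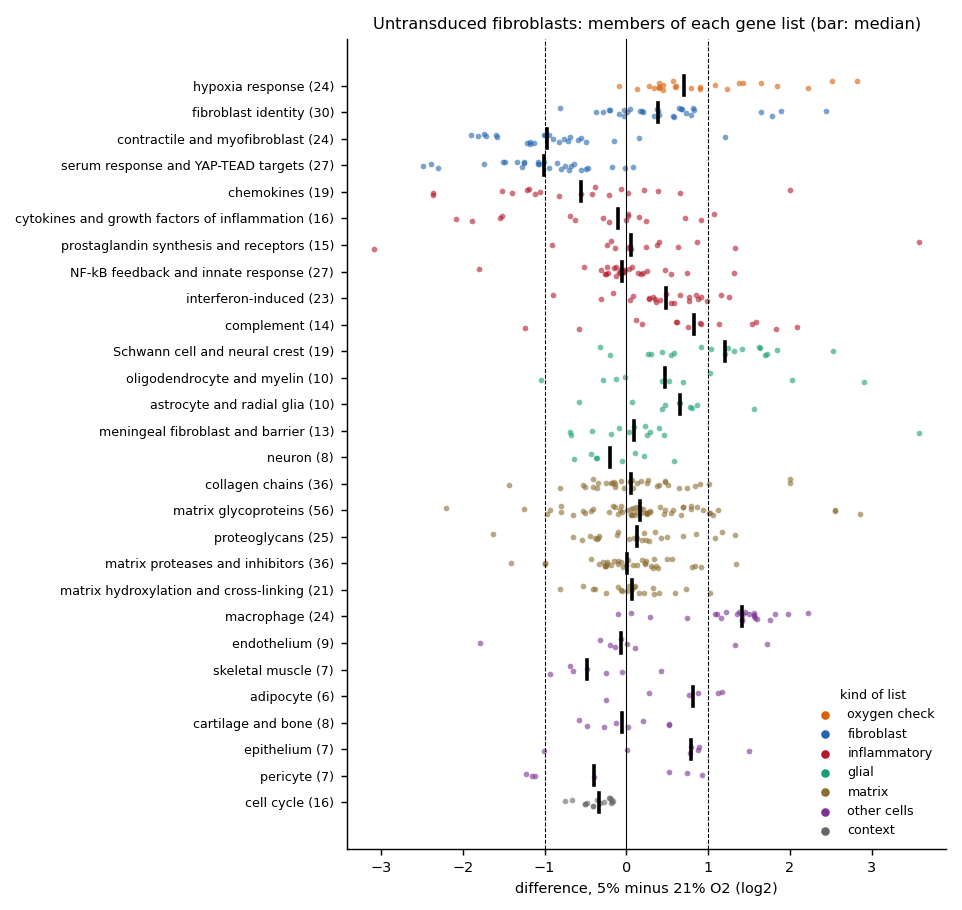
Difference between 5% and 21% O2 (log2) of each member measured on both arrays, for the 28 lists with at least 6 such members (number in brackets). Each point is a gene, the black bar is the list's median and dashed lines mark 2-fold: macrophage (1.42) and Schwann cell (1.21) lists have the highest medians, and the contractile (-0.97) and serum response (-1.01) lists the lowest.

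The hypoxia list was set against the oxygen labels, but it was chosen with earlier results of these data known and so is no independent check. The list was higher at 5% O2 in 23 of 24 members, with a median of 0.70, and 9 were at least 2-fold higher, against 2.56% of all genes. Mgarp, a mitochondrial protein induced by HIF, went from -3.40 to -0.59, and Ankrd37, an ankyrin-repeat protein induced by HIF, from -2.26 to 0.25. Slc16a3, which exports lactate, went from 1.42 to 3.64, and Egln3, a prolyl hydroxylase that acts on HIF, from -3.15 to -1.32. The others past 2-fold were the lipase inhibitor Angptl4 (1.64), the aldolase Aldoc (1.42), the pyruvate dehydrogenase kinase Pdk1 (1.38), the mitophagy receptor Bnip3 (1.23) and the mitochondrial adenylate kinase Ak4 (1.08). Ak4 was under 2-fold with normexp background correction or spike-in scaling. The vascular growth factor Vegfa went from 2.08 to 2.65. In four-factor cells, after the shorter time, the median of the hypoxia list was 1.42. Against 1.25% of all genes measured in those cells, 15 of the list's 24 genes were at least 2-fold higher. Among these genes, Slc16a3 differed by 4.64 there and by 2.22 in untransduced cells, while Ankrd37 differed by 2.75 and 2.52.

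The promoter sequences of RefSeq (build GRCm38.p6) were read for the letters that HIF binds, ACGTG or GCGTG, on either strand, from 250 bases before to 50 bases after the start of transcription. Overlapping matches of these letters both count. They stood in 43.8% of all 27025 promoters in the table and in 62.7% of the 10259 that belong to genes measured on both arrays. Of the hypoxia list, 20 of 22 promoters (90.9%) held them, and so did all 8 promoters found for the 9 members past 2-fold. Over all genes past 2-fold the shares were 43.7% of 254 promoters (higher) and 49.4% of 166 (lower). The windows shown belong to the 2 members of the hypoxia list furthest higher among those with a match, with these letters in capitals. They lie at chr3:51396498-51396797 (minus strand) for Mgarp and at chr8:45999801-46000100 (minus strand) for Ankrd37. Ankrd37 has a match that begins 6 bases before the start.
Mgarp: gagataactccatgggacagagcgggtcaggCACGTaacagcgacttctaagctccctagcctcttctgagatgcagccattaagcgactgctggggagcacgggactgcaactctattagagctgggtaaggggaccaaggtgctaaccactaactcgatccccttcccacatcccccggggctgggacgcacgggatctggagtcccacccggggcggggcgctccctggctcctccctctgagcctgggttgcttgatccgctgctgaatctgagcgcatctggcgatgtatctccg
Ankrd37: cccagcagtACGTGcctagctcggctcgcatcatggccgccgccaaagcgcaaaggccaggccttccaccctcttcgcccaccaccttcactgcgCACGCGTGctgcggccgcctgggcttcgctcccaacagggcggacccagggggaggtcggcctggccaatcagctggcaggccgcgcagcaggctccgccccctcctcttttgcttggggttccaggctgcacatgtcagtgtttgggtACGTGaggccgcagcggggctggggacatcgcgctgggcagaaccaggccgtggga

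Fibroblast identity genes were mostly higher at 5% O2, by less than 2-fold for all but 4. Of the 30 genes, 22 were higher and 8 lower, and the median was 0.38. By at least 2-fold 4 were higher and none lower, against 2.56% and 1.72% of all genes. Those 4 past 2-fold were Clec3b, the plasminogen-binding protein tetranectin (-3.36 at 21% and -0.92 at 5% O2), Pi16, a peptidase inhibitor of perivascular fibroblasts (-0.31 and 1.58), Dpp4, a cell-surface peptidase of fibroblast progenitors (-2.71 and -0.93), and Cd34, a surface mucin of progenitor cells (3.67 and 5.32). Ly6a, the surface antigen Sca-1, was higher by 0.73, and Pdgfra, a receptor for platelet-derived growth factor, by 0.82. The receptor Pdgfrb (-0.20), the surface protein Thy1 (-0.29) and the intermediate filament Vim (-0.09) were close to their levels at 21% O2. S100a4, a calcium-binding protein of motile fibroblasts, was furthest lower at -0.81. In four-factor cells the median was -0.19, with 21 of 28 genes on the lower side. Dpp4 was the list's 1 member past 2-fold there, higher by 1.44.

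Contractile genes were mostly lower at 5% O2. Of 24 genes measured on both arrays 22 were lower, with a median of -0.97, and 11 were at least 2-fold lower and 1 higher. Cnn1, the actin-binding calponin of smooth muscle, went from 5.84 to 3.93, a 3.74-fold difference (chromosome 9, 21859016 to 21859075). Acta2, the smooth muscle actin that defines myofibroblasts, went from 8.17 to 6.99, 2.27-fold lower (chromosome 19, 34307567 to 34307626). The other actins followed, with Actc1 lower by -1.82, Acta1 from 2.66 to 0.91 and Actg2 from 4.06 to 2.46. Lmod1, which nucleates actin filaments, was lower by -1.72, and the smooth muscle myosin chain Myh11 by -1.59. Tagln (-1.13), and the tropomyosin Tpm2 (-1.18) were past 2-fold too, the myosin light chain Myl9 just so (7.71 and 6.70), as was Myocd (-1.21), the cofactor that directs SRF to muscle genes. Ldb3, a Z-disc protein, was at least 2.08-fold lower. Smtnl2, related to the actin-binding smoothelins, was the 1 gene 2-fold higher, from -3.88 to -2.68, and was higher by 3.80 in four-factor cells. With normexp, Smtnl2, Myl9 and Myocd were under 2-fold. Of these members 13 were in the brightest of the 4 groups, and 7 of those 13 were at least 2-fold lower, where 0.79% of all genes were. The summed signal of the list was 1359 times the array's 75th percentile at 21% O2 and 682 at 5% O2.

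Genes induced by serum, SRF and YAP-TEAD were lower by about as much. Of 27 genes 26 were lower, with a median of -1.01, and 14 were at least 2-fold lower, against 1.72% of all genes, and none higher. Ankrd1, a muscle ankyrin protein and a standard YAP target, went from 1.67 to -0.72, and Fosl1, a subunit of the AP-1 factor, from -1.94 to -4.25. The matricellular proteins Ccn1 and Ccn2 went from 4.53 to 3.19 and from 6.94 to 5.43. The secreted ligands Hbegf, which activates the EGF receptor, and Inhba, a subunit of activin, were lower by -1.75 and -1.48. Past 2-fold were also the early-response factors Egr2 (-1.26), Junb (-1.01) and Myc (-1.27), the synaptic early gene Arc (-1.26), the stress gene Ier3 (-1.09), the kinase Nuak2 (-1.07) and the urokinase receptor Plaur (-1.08). Junb and Nuak2 were under 2-fold with normexp. Lower by a bound were Fosb, another AP-1 subunit (4.52-fold or more), and Ereg, an EGF receptor ligand (3.23-fold or more). Srf itself differed by -0.85. In four-factor cells the medians were -0.50 for this list, with 26 of 30 genes lower and 4 of them past 2-fold, and -0.60 for the contractile list, none of it 2-fold lower.

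Promoters were searched for the CArG box bound by SRF, for TEAD letters (GGAATG) and for AP-1 letters (TGANTCA), each on both strands. The CArG box stood in 1.39% of promoters of genes measured on both arrays, in 11 of 166 promoters (6.63%) of the genes at least 2-fold lower and in 3 of 254 (1.18%) of those at least 2-fold higher. In the contractile list 7 of 21 promoters held it, as did 3 of the 7 found for its 11 members at least 2-fold lower. TEAD letters stood in 12.1% of promoters of the measured genes, in 19.9% of the lower and 12.6% of the higher genes, and in 7 of 20 promoters of the serum response and YAP-TEAD list, among them 2 of the 7 found for its 14 members at least 2-fold lower. The contractile list held TEAD letters in 10 of 21 promoters. AP-1 letters stood in 4.88%, 8.43% and 7.48% of these 3 groups. The windows below belong to the 2 members of each list furthest lower among those with a match, with the CArG box (Actc1, Acta1) or the TEAD letters of either strand (Ankrd1, Ccn1) in capitals. They lie at chr2:114052826-114053125 (minus strand), chr8:123894726-123895025 (minus strand), chr19:36119795-36120094 (minus strand) and chr3:145649936-145650235 (minus strand). The CArG boxes begin 47 bases (Actc1) and 73 bases (Acta1) before the start, and the TEAD letters 210 and 123 bases before it in Ankrd1 and 103 bases in Ccn1.
Actc1: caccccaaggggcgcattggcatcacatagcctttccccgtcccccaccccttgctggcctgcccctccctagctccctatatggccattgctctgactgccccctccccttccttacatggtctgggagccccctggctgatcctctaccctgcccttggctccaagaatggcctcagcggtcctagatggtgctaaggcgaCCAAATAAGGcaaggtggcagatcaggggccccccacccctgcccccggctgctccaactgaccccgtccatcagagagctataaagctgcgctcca
Acta1: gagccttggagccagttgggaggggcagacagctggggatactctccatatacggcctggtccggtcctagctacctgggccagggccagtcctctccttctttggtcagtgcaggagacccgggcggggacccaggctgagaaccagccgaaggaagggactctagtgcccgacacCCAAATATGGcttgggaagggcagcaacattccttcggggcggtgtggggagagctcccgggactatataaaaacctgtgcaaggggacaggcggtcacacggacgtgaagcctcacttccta
Ankrd1: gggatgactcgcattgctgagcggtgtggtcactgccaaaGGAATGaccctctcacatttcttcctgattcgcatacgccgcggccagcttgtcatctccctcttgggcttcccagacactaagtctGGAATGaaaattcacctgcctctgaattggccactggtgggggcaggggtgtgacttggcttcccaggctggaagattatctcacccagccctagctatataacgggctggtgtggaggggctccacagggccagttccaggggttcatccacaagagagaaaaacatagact
Ccn1: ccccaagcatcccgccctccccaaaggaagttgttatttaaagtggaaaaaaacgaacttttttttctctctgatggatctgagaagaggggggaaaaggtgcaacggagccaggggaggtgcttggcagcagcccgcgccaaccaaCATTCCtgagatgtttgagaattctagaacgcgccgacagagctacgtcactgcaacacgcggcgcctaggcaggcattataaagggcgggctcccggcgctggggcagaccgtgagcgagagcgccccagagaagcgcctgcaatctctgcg

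Chemokines, the secreted proteins that attract leukocytes, were mostly lower at 5% O2. Of 19 measured on both arrays 14 were lower, with a median of -0.56, and 8 were at least 2-fold lower and 1 higher. Over all genes, 1.72% were at least 2-fold lower and 2.56% higher. Ccl2, which draws monocytes, went from 4.70 to 2.33, 5.16-fold lower (chromosome 11, 81853343 to 81853402), and Ccl7, which acts on the same receptor, was lower by -1.52. Ccl20, which draws CCR6-bearing lymphocytes and dendritic cells, went from -0.77 to -3.13. Cxcl14, made by fibroblasts, went from 5.45 to 4.23 and the membrane-bound Cx3cl1 from 2.77 to 1.59. Ccl5 (-1.12), Cxcl15 (-1.05) and Ppbp (-1.40) were the others past 2-fold, and Ccl17 was at least 3.64-fold lower. With normexp, Ccl5, Cxcl15 and Ppbp were under 2-fold. Pf4, a chemokine of platelets and macrophages, went the other way, from -2.27 to -0.27, and Ccl12 was at least 2.47-fold higher. Cxcl1, a neutrophil attractant, differed by -0.38. Of 19 chemokines measured in four-factor cells 16 were lower, the median was -0.61 and 2 were past 2-fold.

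Other inflammatory signals differed gene by gene. Among cytokines Il6 went from -1.71 to -3.79, Il1rn, the interleukin-1 receptor antagonist, from 1.39 to -0.50, Tnfsf18, a TNF family ligand, was lower by -1.54 and the alarmin Tslp by -1.52. Tslp was under 2-fold with normexp. Il16 was the 1 cytokine 2-fold higher (1.07, and under 2-fold with normexp or spike-in scaling), the list's median over 16 genes was -0.10, and Il1a, Il1b and Tnf were dim on both arrays. In the prostaglandin list the synthases split: Ptgs2 was lower and Ptgds higher by the amounts above, Ptgs1, the constitutive cyclooxygenase, was higher by 0.38, and the prostaglandin E synthases Ptges and Ptges2 differed by 0.02 and -0.14. The receptor Ptger3 was higher by 1.33 (under 2-fold with normexp), and Tbxas1, thromboxane synthase, at least 2.05-fold higher. The 15 genes measured there had a median of 0.05, which was -0.035 with spike-in scaling and 0.21 with the median over probes.

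Genes of NF-kB feedback and the innate response showed no common shift. Their list mixes genes induced by NF-kB with pathway members and receptors such as Rela, Myd88 and Tlr4, and NF-kB activity was not tested. The list of 27 genes had a median of -0.05, with 1 gene 2-fold higher and 1 lower, against 2.56% and 1.72% of all genes. Nfkbia, the inhibitor of NF-kB, had a level of 2.94 at 21% and 2.86 at 5% O2. Tnfaip3, a ubiquitin-editing inhibitor, differed by -0.08, Nfkbiz by -0.27 and Nfkb1 by 0.18. The 2 past 2-fold were Il1rl1, the receptor for interleukin-33, from 2.15 to 0.35, and Traf1, an adaptor of TNF receptors, from -4.47 to -3.16. Traf1 was under 2-fold with normexp. The NF-kB binding motif stood in 9.04% of promoters of the genes at least 2-fold lower and in 9.84% of those of the higher ones, against 10.2% of the measured genes.

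Most interferon-induced genes lay on the higher side at 5% O2 by less than 2-fold, and complement genes included 5 past it. Of 23 interferon-induced genes 20 were higher, with a median of 0.49, and 2 were past 2-fold, the oligoadenylate synthetase-like Oasl2 (-0.10 and 1.15) and the GTPase Igtp (0.88 and 2.04). The antiviral genes Ifit1, Ifit2 and Ifit3 were higher by 0.76, 0.49 and 0.58, and Isg15 by 0.05. Oasl1, Ifi44 and Rsad2 were on the lower side, at -0.89, -0.31 and -0.16. Of 14 complement genes 12 were higher, with a median of 0.83, 5 were at least 2-fold higher and 1 lower. Over all genes, 2.56% were at least 2-fold higher and 1.72% lower. C2, a protease of the classical pathway, went from 1.41 to 3.49 and Cfb, its counterpart in the alternative pathway, from -1.76 to 0.08. C3, on which the pathways converge, went from 2.21 to 3.79, C4b from -1.50 to -0.37, and the inhibitor Serping1 from 1.88 to 3.42. Masp1, a protease of the lectin pathway, was lower by -1.24, and the surface inhibitor Cd59a differed by -0.59. In four-factor cells the interferon and complement lists had medians of -0.27 and -0.12. Macrophage markers were higher on the same array, as given next, and their part in these differences was not tested.

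**Figure D3:**
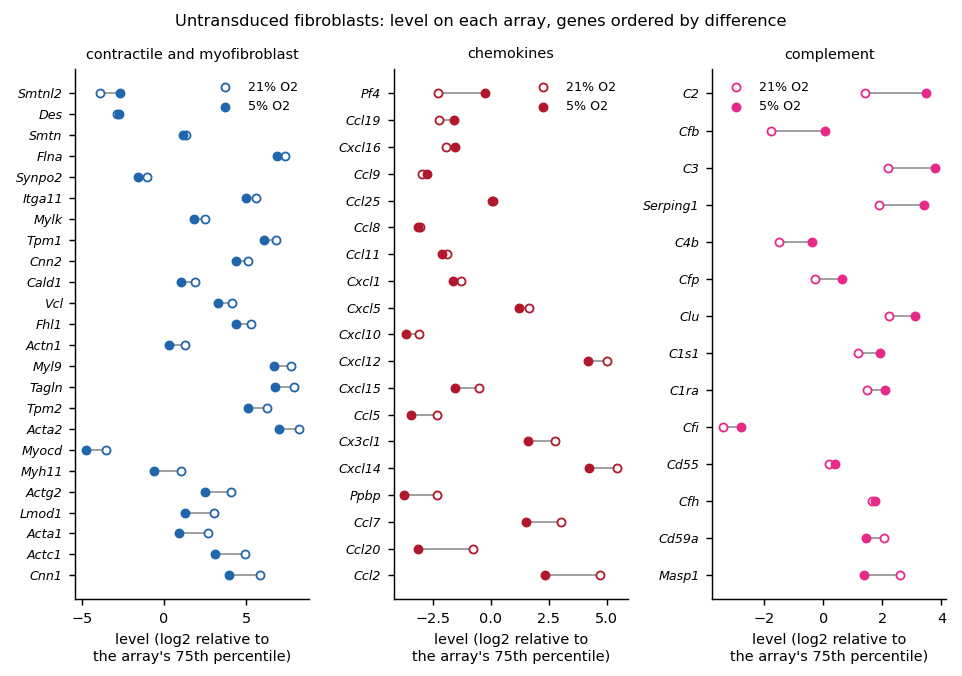
Level of contractile, chemokine and complement genes (log2, with the array's 75th percentile at 0) at 21% O2 (open circles) and 5% O2 (filled circles), 1 array each, ordered by difference. In the contractile panel the filled circles lie to the left for all but Smtnl2 and Des, in the chemokine panel for 14 of 19 genes, and in the complement panel to the right for 12 of 14.

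Macrophage markers were mostly higher at 5% O2. Of the 31 genes listed, 24 were measured on both arrays, 23 of them were higher, and 20 were at least 2-fold higher and none lower, with a median of 1.42 and quartiles of 1.14 and 1.57. Adgre1, the adhesion receptor by which mouse macrophages are recognised, went from -1.51 to 0.31, 3.53-fold higher (chromosome 17, 57168755 to 57168814), and Csf1r, the receptor for their growth factor, from -2.68 to -1.11. The chains of complement C1q, which macrophages secrete, were higher by 1.37 (C1qa), 1.41 (C1qb) and 1.76 (C1qc). Mrc1, the mannose receptor, went from -3.05 to -1.07 and Folr2, a folate receptor of tissue-resident macrophages, from -4.53 to -2.30. Lyz2, lysozyme, which had a level of 3.85 at 21% O2, was at 4.94. The remaining ones past 2-fold were Cd68, Ptprc, Fcgr1, Fcgr3, Fcer1g, Tyrobp, Aif1, Mpeg1, Laptm5, Ctss, Trem2 and Ms4a7, between 1.11 (Aif1) and 1.60 (Fcgr3). Cd14, Itgb2, Cd52 and Cd53 were not past 2-fold, with differences of 0.29, 0.74, 0.05 and -0.11. Cx3cr1 and Lyve1 were measured at 5% O2 alone and had bounds under 2-fold. Cd209f was at least 2.16-fold lower, and Itgam, Cd163, Siglec1 and Spi1 were dim on both arrays.

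The macrophage list's summed signal was 18.9 times the array's 75th percentile at 21% O2 and 42.5 at 5% O2. In a bulk sample, fewer cells of a type and less RNA per cell cannot be told apart. Of these 24 genes 23 were in the lower 2 of the 4 groups by level, so their share past 2-fold is set against genes of like brightness: 9 of 12 members in the dimmest of the 4 groups and 10 of 11 in the next were at least 2-fold higher, against 5.55% and 2.92% of all genes there. With normexp background correction, which shrinks differences of low signals by its offset, 13 of the 24 were past 2-fold in place of 20. F13a1, Pf4 and Arg1, which macrophages also make, stand outside this list and were higher as given above. Ccl2 and Spp1, which macrophages can make as well, were lower. Lists of other blood cells held few measured genes: none of 13 granulocyte and mast cell genes matched was measured on both arrays, Cma1 was at least 2.47-fold lower, and of 12 lymphocyte genes 1 was measured on both, Lck (0.58), while Nkg7 was at least 3.96-fold lower. Outside these lists, genes of the lymphocyte receptors were among those furthest apart in both directions, with Ighm, the mu heavy chain, 5.69-fold higher and Tcra, the T cell receptor alpha chain, 3.99-fold lower (under 2-fold with normexp). In four-factor cells 14 macrophage markers were measured on both arrays, 11 of them lower at 5% O2, with a median of -0.10.

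The PU.1 letters GAGGAAG, a core bound by the factor that directs macrophage genes, stood in 12.9% of promoters of the measured genes, in 18.5% of the higher, 18.7% of the lower, and in 9 of 21 macrophage promoters. The windows of the 2 members furthest higher with a match are shown, Mrc1 at chr2:14229164-14229463 (plus strand) and C1qc at chr4:136892865-136893164 (minus strand). The capitals mark these letters, which here lie on the opposite strand and so read CTTCCTC, and in Mrc1 a match begins 36 bases before the start.
Mrc1: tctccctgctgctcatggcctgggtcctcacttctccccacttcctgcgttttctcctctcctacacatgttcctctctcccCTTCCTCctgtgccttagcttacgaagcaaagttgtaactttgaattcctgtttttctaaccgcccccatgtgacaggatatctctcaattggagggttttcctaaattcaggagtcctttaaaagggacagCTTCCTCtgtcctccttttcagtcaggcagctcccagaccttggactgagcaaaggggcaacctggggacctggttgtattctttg
C1qc: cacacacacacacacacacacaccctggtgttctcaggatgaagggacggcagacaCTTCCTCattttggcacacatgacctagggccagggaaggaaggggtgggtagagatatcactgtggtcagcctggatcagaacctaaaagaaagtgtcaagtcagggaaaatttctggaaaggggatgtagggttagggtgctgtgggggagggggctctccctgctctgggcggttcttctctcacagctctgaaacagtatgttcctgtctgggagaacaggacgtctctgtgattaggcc

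Schwann cell and neural crest genes were mostly higher at 5% O2. Of the 25 listed, 19 were measured on both arrays and 17 of them were higher, with a median of 1.21. At least 2-fold, 11 were higher and none lower, against 2.56% and 1.72% of all genes. In the dimmest of the 4 groups by level 3 of 5 members were 2-fold higher, against 5.55% of all genes there. From the next group to the brightest it was 4 of 8, 4 of 4 and 0 of 2, against 2.92%, 1.08% and 0.68%. Sox10, the factor that specifies crest and glia, went from -1.31 to 0.54, 3.60-fold higher (chromosome 15, 78982330 to 78982389). Its target Erbb3, the neuregulin receptor, went from -1.56 to 0.15. Gfra3, the receptor for artemin, went from -0.14 to 2.39, the largest difference of the list. Foxd3, a crest factor, was higher by 1.69, Sox2 by 1.63, Pou3f1, a factor of promyelinating Schwann cells, by 1.41, and the neurotrophin receptor Ngfr by 1.32. S100b, a calcium-binding protein of glia, was higher by 1.21, Cmtm5 by 1.24 and Fabp7, the fatty acid-binding protein of immature glia, by 1.04. Sox2, Cmtm5 and Fabp7 were under 2-fold with normexp, which left 8 of the 11.

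The other members measured on both arrays differed by less than 2-fold. Cadm4, Dhh, Gap43, Ednrb and Tfap2a were higher by 0.91, 0.58, 0.54, 0.43 and 0.26. Cdh19, Col28a1 and Ncmap were dim on both arrays, and Prx, periaxin of the myelin sheath, differed by -0.20. Pmp22 and Ncam1, which fibroblasts express too, differed by 0.30 and -0.33. The list's summed signal, which includes both, went from 67.0 to 84.4. In four-factor cells 20 members were measured, 10 higher and 10 lower, with a median of 0.01. The SOX letters ACAATGG or ACAAAGG stood in 5.84% of promoters of the measured genes and in 1 of 16 of this list.

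**Figure D4:**
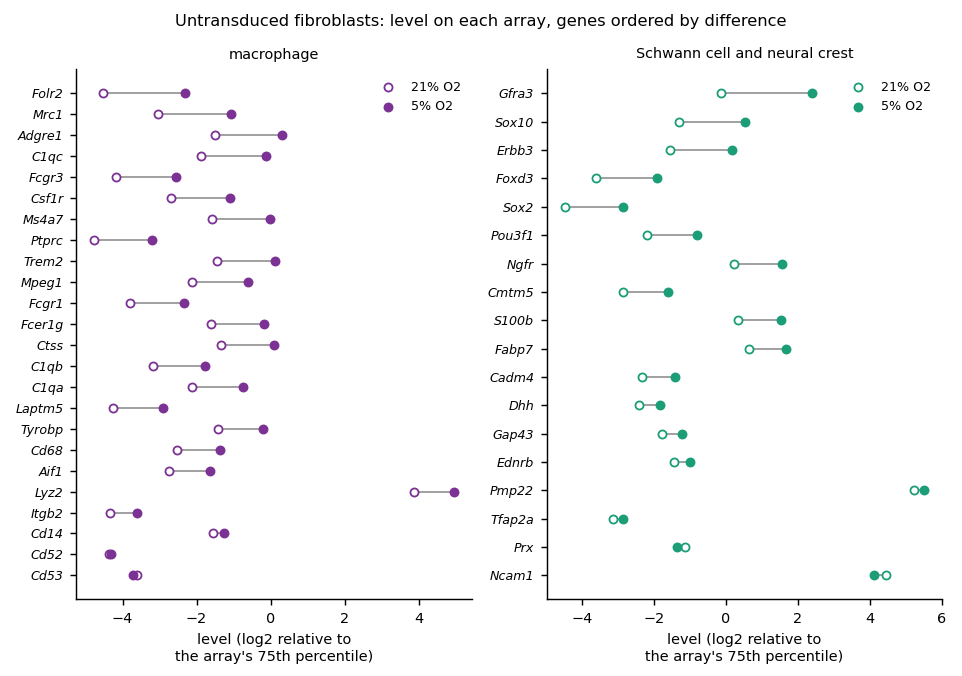
Level of macrophage (24 genes) and Schwann cell and neural crest (18 of the 19 genes) markers (log2, with the array's 75th percentile at 0) at 21% O2 (open circles) and 5% O2 (filled circles), 1 array each, ordered by difference. In the macrophage panel 20 genes are shifted to the right by at least 2-fold, and in the Schwann cell panel 10 of the 18 drawn are, led by Gfra3 and Sox10.

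Other glial markers were sparse. Of 24 oligodendrocyte and myelin genes 10 were measured on both arrays, with a median of 0.48. Gpr17 was higher as above, Aspa, an enzyme of oligodendrocytes, went from -3.39 to -1.37, and Mbp, myelin basic protein, was higher by 1.03 (under 2-fold with normexp or spike-in scaling). Tspan2 was lower by -1.04. The defining factor Olig2 and the myelin genes Mog, Mobp and Opalin were dim on both arrays, Olig1 was higher by 0.70, and Cnp and Mag differed by 0.44 and -0.12. Of 18 astrocyte and radial glia genes 10 were measured, 9 higher, with a median of 0.65, which was 0.25 over the 4 genes left by a stricter filter on low signals. Mlc1, a membrane protein of astrocyte endfeet, was past 2-fold at 1.56, and the bounds for Gjb6 and Ppp1r3g were 3.21-fold and 4.21-fold higher. Gfap was dim on both arrays, Aqp4 was measured at 5% O2 alone, and Slc1a3 and Slc1a2, the glutamate transporters, differed by 0.06 and 0.65.

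Ptgds is also a marker of meningeal fibroblasts, and the meningeal list of 13 measured genes had a median of 0.09 with Ptgds as the 1 gene past 2-fold. The transporters Slco2b1 and Slc47a1 were 7.13-fold and 3.08-fold higher or more, the growth factor Bmp7 5.21-fold or more, and Slc22a6 and Slc22a2 were dim on both arrays and Slc6a13 was above background only with another probe. The meningeal transcription factors Foxc1 (-0.69), Foxc2 (-0.42) and Zic1 (0.28) stayed within 2-fold. Of 20 neuronal genes 8 were measured, with a median of -0.20, and none was past 2-fold. Tubb3 and Map2 were lower by -0.38 and -0.64, Rbfox3 differed by -0.43 and Stmn2 by -0.36. The bounds were 2.36-fold higher for Prph and 2.73-fold lower for Elavl4.

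Most matrix genes differed by less than 2-fold. Of 39 collagen chains 36 were measured, with a median of 0.05 (turned to -0.030 on the spike-in scale). At least 2-fold, 3 of the 36 were higher and 1 lower, against 2.56% and 1.72% of all genes. The fibrillar chains Col1a1, Col1a2 and Col3a1 differed by -0.14, -0.14 and -0.03, and Col5a1 by 0.26. Col14a1, a fibril-associated collagen of dermis and tendon, went from 2.43 to 4.42, 4.00-fold higher (chromosome 15, 55350660 to 55350719). Col20a1, another fibril-associated chain, went from -2.84 to -0.84. Col9a3 was higher by 1.01 from -4.77, and was lower by -1.08 in four-factor cells, and was under 2-fold with normexp or spike-in scaling. Col10a1, the chain of hypertrophic cartilage, was lower by -1.44. The basement membrane chains Col4a1 and Col4a2 differed by -0.51 and -0.36.

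Among 56 matrix glycoproteins the median was 0.16, with 7 at least 2-fold higher and 2 lower, against 2.56% and 1.72% of all genes. In the brightest of the 4 groups by level, 4 of 37 members were higher and 2 lower, against 0.68% and 0.79% of all genes there. Scaled on the spike-in controls, the list had 4 past 2-fold in each direction. The 2 lower ones were Spp1, osteopontin, from 5.55 to 3.34 (4.62-fold), and Tnc, tenascin-C, a protein of healing tissue, from 3.92 to 2.66. Tnxb, the tenascin of loose connective tissue, went from -2.58 to -0.02, so Tnc and Tnxb differed in opposite directions. Of the other tenascins, Tnn differed by -0.53 and Tnr was dim on both arrays. The higher ones besides Tnxb, Vtn and Myoc were the matrilin Matn2 (1.11), the latent TGF-beta binding protein Ltbp4 (1.05) and the elastic fibre proteins Mfap5 (1.03) and Emilin2 (1.01). The last 3 were under 2-fold with spike-in scaling, and Mfap5 and Emilin2 with normexp too. Fn1, fibronectin, differed by -0.16, Postn, periostin, by 0.05, and Thbs1, thrombospondin 1, by -0.97. The summed signal of the glycoproteins was 1610 at 21% and 1648 at 5% O2.

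Proteoglycans had a median of 0.13 over 25 genes. Kera, keratocan, was higher by 1.08, Srgn, serglycin of leukocyte granules, by 1.17 and Bcan, brevican of neural matrix, by 1.33, while Prg4, lubricin, was lower by -1.63. Srgn and Bcan were under 2-fold with normexp, and Kera was with spike-in scaling. Bgn, biglycan, Fmod and Omd differed by -0.12, 0.18 and 0.43, and Prelp by 0.69. Matrix proteases and inhibitors had a median of 0.01 over 36 genes, which turned to -0.079 with spike-in scaling and was 0.21 with the stricter filter. Adamts15 was higher by 1.34 and Plau, the urokinase, lower by -1.41 (under 2-fold with normexp). The bounds for Timp4 and Adamts19 were 2.33-fold and 2.16-fold higher, Mmp2 and Mmp13 differed by 0.19 and -0.26, Mmp3 by -0.99, and Mmp9 was above background only with another probe. Of 21 hydroxylation and cross-linking enzymes, whose list had a median of 0.07 (turned to -0.015 on the spike-in scale), Plod1, a lysyl hydroxylase and HIF target, was the 1 past 2-fold at 1.03, and was under it with normexp or spike-in scaling. The prolyl hydroxylases P4ha1 and P4ha2, induced by HIF as well, were higher by 0.59 and 0.73, and by 1.05 and 1.11 in four-factor cells. The cross-linking oxidases Lox, Loxl1, Loxl2 and Loxl3 differed by -0.06, -0.10, -0.41 and -0.81.

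Markers of further cell types did not share a direction across lists. Of 6 adipocyte genes measured 5 were higher, with a median of 0.82. Lpl, lipoprotein lipase, went from 5.25 to 6.42 and Fabp4, a fatty acid-binding protein, from -0.15 to 0.97, Pparg was higher by 0.76, and Adipoq was measured at 5% O2 alone. Of 7 epithelial genes 6 were higher, with a median of 0.79 (0.25 without the filter). Krt14 went from -2.95 to -1.45, Perp was lower by -1.01, Cldn4 and Cdh1 were 3.37-fold and 2.21-fold higher or more, and Epcam was dim on both arrays. Perp was under 2-fold with normexp or quantile normalization. The 9 endothelial genes had a median of -0.07. Tek (1.72) and Plvap (1.33) were higher and Emcn (-1.79) lower, while Pecam1 and Tie1 were dim. Plvap and Emcn were under 2-fold with normexp, and Tek was with the median over probes. The 7 pericyte genes had a median of -0.39 with Rgs5 (-1.23), Mcam (-1.16) and Rgs4 (-1.12) past 2-fold. Rgs5 was under 2-fold with normexp. The 7 skeletal muscle genes (-0.48) and the 8 cartilage and bone genes (-0.05, turned to 0.20 with the stricter filter) held no gene past 2-fold, and Myod1, Myog and Myf5 were dim. Of 9 erythroid genes matched 2 were measured on both arrays, and Epor, the erythropoietin receptor, differed by -0.19.

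Set beside four-factor cells, the lists went different ways. The hypoxia, contractile, serum response and chemokine lists had medians of the same sign in both cultures, at 0.70 and 1.42, -0.97 and -0.60, -1.01 and -0.50, and -0.56 and -0.61 (untransduced first). The macrophage, Schwann cell and complement lists had medians of 1.42, 1.21 and 0.83 in untransduced cells and of -0.10, 0.01 and -0.12 in four-factor cells. The cell cycle list had -0.34 and 0.50. These medians cover unlike sets of genes, with 24 macrophage genes measured in untransduced and 14 in four-factor cells. Adgre1 (-8.13 and -8.39 at 21% and 5% O2) and Mrc1 (-8.81 and -9.08) were among those without a measured difference in four-factor cells. The cultures differed in transduction, in time at each oxygen level and in slide, which cannot be told apart, and the difference between them was not tested.

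**Figure D5:**
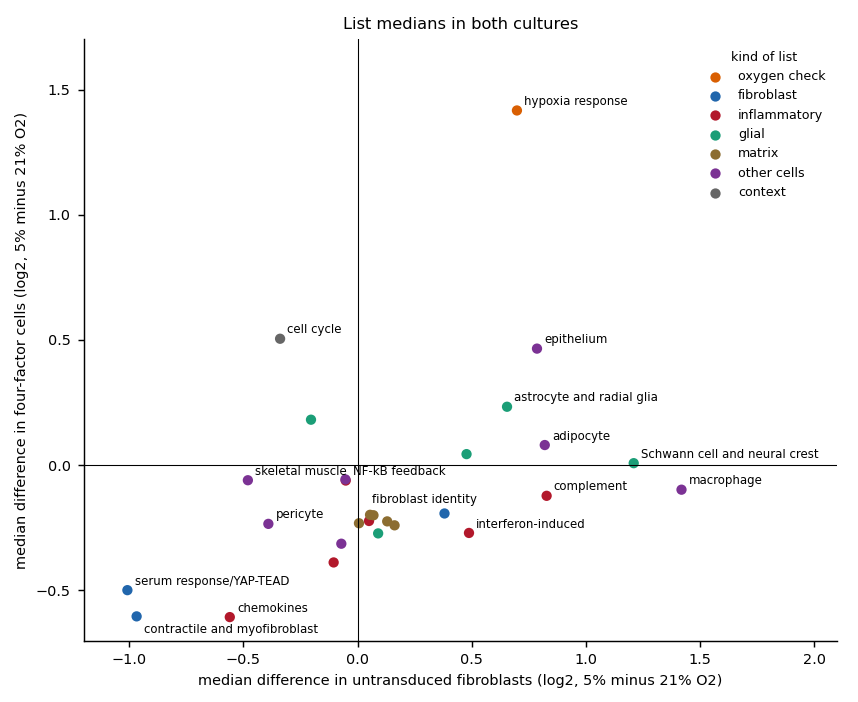
Median difference between 5% and 21% O2 (log2) of each list in untransduced fibroblasts (horizontal) and in four-factor cells (vertical), for the 28 lists with at least 6 members measured in each, coloured by kind of list. Macrophage (1.42) and Schwann cell (1.21) lists lie far right and close to 0 vertically, and the hypoxia list (0.70 and 1.42) lies above the rest. Each median covers the members measured in that culture, so the genes behind a list can differ between the axes.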

How the data were processed

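Total RNA of 4 samples was hybridised to one-colour arrays. Per the file headers, the extraction software was Agilent Feature Extraction 9.5.3.1, and the deposited processed signal is an intensity, background-subtracted and not normalized between arrays. The mean spot and background intensity were deposited too. The deposited value table holds log2 values, with no software named. For 99.8% of probes it lay within 0.01 of the value used here, with column medians of -3.70 (21% O2) and -3.69 (5% O2).

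The value used was log2 processed signal, averaged over replicate spots without the 112 and 115 outlier spots, minus the array's 75th percentile. A gene is its brightest probe over the 4 arrays. Where more than 1 probe was measured (5467 genes), probes opposed each other for 1472 genes, but for 2 of 113 genes at least 2-fold apart. A gene counts as higher or lower at 2-fold if well above background on both arrays. If 1 array alone measured it, the fold is a lower bound against its own dim signal or, if higher, the array's lowest well-above-background signal (26.5 and 24.9 intensity units). Probes were named through a gene table of assembly GRCm38.p6 (24496 by accession, 6234 by symbol, 2386 by synonym), and 8058 kept the file's name. Promoters are the first window a gene has in the RefSeq table. The counting was tested on simulated data. Alternatives used limma 3.58.1 (normexp, offset 50). The number of arrays, 1 per condition, limits the precision.

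Members and lists were chosen with earlier results of these data known. Named are the 25 genes furthest apart per direction whose probes do not oppose each other, up to 6 per direction by bound, list members at least 2-fold apart, the first 4 of each list, and members opposed by 2-fold between cultures. Clone names are left out, and some genes the rule covers are not reported here. Genes singled out besides these (as examples near 0 or dim) were chosen after their values were seen.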

Additional observations from a re-analysis of the deposited data

Results flagged for a closer look

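Listed here are named genes at least 2-fold apart with oxygen in both cultures and in opposite directions, and gene lists whose members all went one way in untransduced fibroblasts and all the other way in four-factor cells. Lists whose medians alone differed in sign, such as fibroblast identity, interferon-induced and complement genes, are in the text above. None of these differences between cultures was tested, since each condition had 1 array. F13a1, the factor XIII A chain, was higher at 5% O2 by 3.78 in untransduced fibroblasts and lower by -1.01 in four-factor cells, where its level was low at both oxygen levels (-4.49 and -5.51). Col9a3, a cartilage collagen chain, was higher by 1.01 in untransduced fibroblasts and lower by -1.08 in four-factor cells, at levels between -5.17 and -3.76 on all 4 arrays, and the difference in untransduced fibroblasts was under 2-fold with normexp or spike-in scaling. The 16 cell cycle genes were all lower at 5% O2 in untransduced fibroblasts, with a median of -0.34, and all higher in four-factor cells (median 0.50).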

How the results depend on the processing

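All 162 genes named from both arrays kept their direction under every alternative that measured them. They were picked for differences of at least 2-fold, and spike-in scaling moved the median of all genes by -0.085, too little to turn them. The deposited table and the absence of a filter kept all of them past 2-fold. That was largely set in advance, because the table holds nearly the same values and removing the filter leaves these genes' values as they are. Normexp background correction left 36 of them under 2-fold, spike-in scaling 10, quantile normalization 3, the median over probes 2 (Junb and Tek) and median scaling 1 (Emilin2). Counts of genes 2-fold higher and lower were 196 and 132 with normexp, 1069 and 1100 of 27576 genes without the filter, 87 and 83 of 8892 genes with the stricter filter, 1054 and 870 at 1.5-fold, and 113 and 57 at 3-fold. The median over probes had 15211 genes, and all settings but this one, the unfiltered and the stricter had 15197. The stricter filter measured 68 of the 162 named genes and, of the macrophage list, Lyz2 alone, so it did not check that list. Medians with spike-in scaling were 0.30 (fibroblast identity), -1.05 (contractile), -1.09 (serum response and YAP-TEAD), -0.64 (chemokines), -0.14 (NF-kB feedback), 1.33 (macrophage), 1.12 (Schwann cell), 0.39 (oligodendrocyte), 0.077 (glycoproteins) and, turned in sign, -0.030 (collagens), -0.015 (hydroxylation and cross-linking), -0.079 (proteases) and -0.035 (prostaglandin). With quantile normalization they were 0.45 (fibroblast identity), -0.86 (contractile), -0.92 (serum response) and 0.24 (glycoproteins). With normexp they were -0.93 (serum response), -0.40 (chemokines), 1.09 (macrophage), 0.90 (Schwann cell) and 0.37 (oligodendrocyte). With the stricter filter they were -1.19 (chemokines), 1.12 (Schwann cell) and 0.21 (oligodendrocyte). Without the filter the chemokine median was -0.21 and the oligodendrocyte median turned to -0.16, the added members being dim. With the median over probes they were -0.95 (serum response), -0.49 (chemokines) and, turned, -0.023 (meningeal). The cause of these shifts was not tested. No paired analysis was possible because each condition has 1 array, and no replicate could be left out. Low signal over background limits most macrophage and glial markers.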
